A study of Homo sapiens with 4 samples.

Results

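The genes described here make ribosomes. A list of 46 symbols of ribosome biogenesis and nucleolar factors was followed across an RNA interference study of BORIS in human colorectal cancer cell lines, and 45 of them had a probe set paired with that gene alone, out of 18132 genes measured in this way. GNL3, a nucleolar GTPase, had none and has no value. Where a gene had several probe sets, the brightest over the 4 arrays stood for it. No expression difference entered the rule, and all 45 were at or above the array median somewhere, so none was lost to the filter on dim probe sets.

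The study held 4 samples of total RNA, each on 1 PrimeView array: HCT116 cells with BORIS siRNA, HCT116 cells with a negative control siRNA, cells labelled Caco-2 with BORIS siRNA, and cells labelled Caco-2 with the control siRNA. Transfection lasted 3 days, and both lines are established tumour lines grown in serum-containing medium. BORIS is the product of CTCFL, a paralog of the insulator protein CTCF that is normally restricted to the male germ line. With 1 array a group, a difference between siRNAs within a line has no replicate error and no p-value.

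The arrays set limits on the labels. CTCFL read 4.93 and 5.07 in HCT116 with BORIS and control siRNA and 5.09 and 5.07 in the cells labelled Caco-2, below the array medians of 5.46 to 5.48, so the knockdown had no measurable check. All 5 epithelial markers lay above the array median on every array and no fibroblast marker did. Among 8 enterocyte markers, VIL1 was the only one above the median on both arrays labelled Caco-2. CDX2 read 5.19 and 5.77 there, and APOA1, APOB and FABP1, which Caco-2 cells are known to make, lay between 2.93 and 4.88, under the olfactory receptor background of 4.80 and 5.05 on the same array in each case. The name Caco-2 below therefore stands for the arrays labelled so. Poly-A spike-in controls averaged 8.44 and 7.57 on the HCT116 arrays with BORIS and control siRNA, against 6.71 and 6.78 on the arrays labelled Caco-2. The 3 prime minus 5 prime difference of the ACTB control was 1.47 and 1.34 in HCT116, against 0.97 and 1.05 in Caco-2, while that of GAPDH lay between -0.005 and 0.041. Their part in the results below was not tested.

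Ribosomes are built in the nucleolus, where RNA polymerase I copies the ribosomal DNA into a long precursor RNA. Small nucleolar ribonucleoproteins (snoRNPs) of the box C/D and box H/ACA classes direct methylation and pseudouridylation of that RNA, the small subunit processome folds and cleaves its first part, and separate sets of factors mature the small and the large subunit. The output of this pathway follows growth, and MYC, which binds the E-box, is its best known transcriptional activator in colorectal tumours. MYC itself read 11.37 and 11.61 in HCT116 with BORIS and control siRNA, and 11.84 and 11.85 in Caco-2.

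Promoter sequences from RefSeq (GRCh38.p14), each 300 bases around the start of a gene, were found for 40 of the 46 symbols. They were searched for the E-box CACGTG, which reads the same on both strands, and, on both strands, for a loose form of the CTCF core motif, which BORIS also recognises. The E-box stood in 14 of the 40, or 35.0%, and in 7.43% of 27305 promoters of the same length. The CTCF-type motif stood in 2 of the 40, NOP10 and RRP1, or 5.0%, and in 2.49% of all. The 14 genes with an E-box had a median siRNA difference of -0.07 in HCT116 and -0.09 in Caco-2 on the log2 scale, and the 25 measured genes with a retrieved promoter and no E-box had 0.07 and -0.13. The median line difference, HCT116 minus Caco-2, was 0.14 for the genes with an E-box and -0.03 for those without. Of the genes that passed the line test below, LTV1 and WDR43 (higher in HCT116) and UTP20 and FBL (lower) had an E-box. RRN3, POLR1A and DKC1 also passed and had none, and no promoter was found for BOP1. Whether the motif bears on the line difference was not tested. A match describes letters in this window and nothing about binding. Shown are the E-box promoters of genes that differed between the lines, LTV1 (chr6:143843088-143843387, plus strand), WDR43 (chr2:28894417-28894716, plus), UTP20 (chr12:101279855-101280154, plus) and FBL (chr19:39846330-39846629, minus), and that of NOP10 (chr15:34343087-34343386, minus), which held both motifs. Each is written in the direction of its gene with the motifs in capitals.
LTV1: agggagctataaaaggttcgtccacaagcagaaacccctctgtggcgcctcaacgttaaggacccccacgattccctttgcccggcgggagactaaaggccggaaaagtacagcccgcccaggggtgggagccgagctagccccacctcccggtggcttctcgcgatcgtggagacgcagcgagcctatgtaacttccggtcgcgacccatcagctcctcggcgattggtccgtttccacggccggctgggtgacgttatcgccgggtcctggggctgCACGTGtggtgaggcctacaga
WDR43: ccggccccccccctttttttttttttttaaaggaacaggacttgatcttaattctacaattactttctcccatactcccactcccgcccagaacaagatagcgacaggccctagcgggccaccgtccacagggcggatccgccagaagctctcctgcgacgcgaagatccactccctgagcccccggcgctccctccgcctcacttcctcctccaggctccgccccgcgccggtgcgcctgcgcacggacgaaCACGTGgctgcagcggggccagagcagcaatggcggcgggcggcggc
UTP20: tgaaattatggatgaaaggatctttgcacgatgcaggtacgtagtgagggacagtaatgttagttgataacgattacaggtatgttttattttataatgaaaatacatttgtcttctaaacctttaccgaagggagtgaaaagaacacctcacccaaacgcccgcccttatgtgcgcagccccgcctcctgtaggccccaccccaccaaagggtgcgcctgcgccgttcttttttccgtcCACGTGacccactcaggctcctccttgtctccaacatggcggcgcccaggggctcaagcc
FBL: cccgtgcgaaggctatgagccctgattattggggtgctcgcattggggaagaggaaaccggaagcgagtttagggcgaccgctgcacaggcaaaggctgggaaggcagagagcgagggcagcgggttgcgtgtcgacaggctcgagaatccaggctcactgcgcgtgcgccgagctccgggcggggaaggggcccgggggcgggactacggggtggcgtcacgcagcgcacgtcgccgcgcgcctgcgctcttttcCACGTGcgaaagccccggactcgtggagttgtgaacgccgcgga
NOP10: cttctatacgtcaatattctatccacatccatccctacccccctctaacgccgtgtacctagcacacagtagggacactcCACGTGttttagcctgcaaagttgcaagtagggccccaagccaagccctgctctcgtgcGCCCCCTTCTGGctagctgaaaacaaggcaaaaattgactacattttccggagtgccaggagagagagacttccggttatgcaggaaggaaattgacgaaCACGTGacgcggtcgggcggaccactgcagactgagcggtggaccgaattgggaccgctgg

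The first question was whether BORIS siRNA altered these genes in either line, and the differences were small. In HCT116, 0 of 45 were higher and 0 lower at 1.5-fold (0.58 in log2 units), where 4.36% of 10631 expressed genes were higher and 9.18% lower. In Caco-2 the counts were again 0 and 0, where 2.78% of 10389 expressed genes were higher and 1.14% lower. At 1.25-fold, a bound added after the values had been seen, 5 were higher and 7 lower in HCT116 (all genes 15% and 24.1%), and 1 was higher and 4 lower in Caco-2 (all genes 11.7% and 7.27%). The standard deviation over the genes was 0.27 in HCT116 and 0.17 in Caco-2, against 0.40 and 0.27 over all genes expressed in the same line.

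In Caco-2 the differences were small but mostly of a single sign: 11 of 45 genes were higher with BORIS siRNA and 34 lower, with a median of -0.09, where 50.5% of all expressed genes were higher and their median was 0.003. In HCT116, 22 were higher and 23 lower, with a median of -0.04, where 44.5% of all genes were higher and their median was -0.05. Quantile normalization gave 21 lower of 45 and a median of 0.02 in HCT116, and 35 lower of 45 and a median of -0.14 in Caco-2. It moved all expressed genes as well. Of these, 50.3% were then lower in HCT116, with a median of -0.002, and 55.2% in Caco-2, with a median of -0.027. Of the 45, 22 were lower in both lines, 10 higher in both, 12 higher in HCT116 and lower in Caco-2, and 1, HEATR1, lower in HCT116 and higher in Caco-2. The other HEATR1 probe set at the array median stood at -0.24 in both lines, so that pattern rests on 1 probe set. The share of all expressed genes with each pattern was not counted, so these counts do not measure agreement between the lines.

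**Figure D1:**
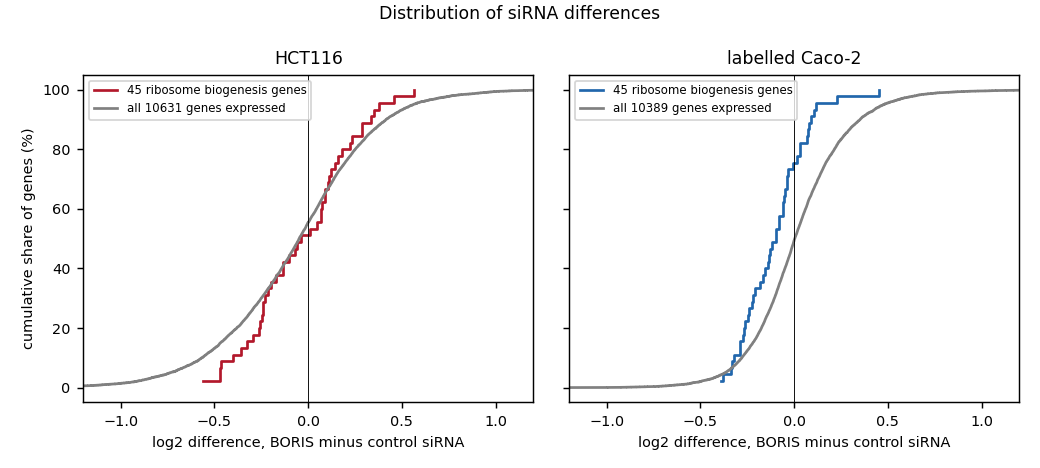
Cumulative share of genes (vertical axis, %) against the log2 difference between BORIS and control siRNA (horizontal axis), for the 45 ribosome biogenesis genes (coloured) and all expressed genes (grey), in HCT116 (left) and Caco-2 (right). The coloured line lies left of the grey one over most of its course in Caco-2, where 34 of 45 genes were lower, and crosses it near 0 in HCT116, where 23 were.

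RNA polymerase I and its initiation factors came first in the pathway. POLR1C, a subunit shared with RNA polymerase III, read 9.93 with BORIS siRNA against 9.60 with control siRNA in HCT116, a log2 difference of 0.34, and 9.14 against 9.47 in Caco-2, a difference of -0.34. The lines thus lay on opposite sides for this probe set, although its 3 probe sets did not share a sign in Caco-2, where they ranged from -0.34 to 0.24. POLR1A, the largest catalytic subunit, read 7.48 against 7.84 in HCT116, a difference of -0.36, and 8.463 against 8.502 in Caco-2, a difference of -0.04. Its other probe set, dimmer, read 4.57 against 5.53 in HCT116, with the BORIS siRNA value below background there. POLR1B differed by 0.11 and 0.07 in HCT116 and Caco-2. RRN3, which recruits the polymerase to its promoter, differed by 0.18 and -0.14, and UBTF, the factor that keeps ribosomal DNA open, by -0.06 and -0.14. The probe sets of POLR1B and of UBTF took both signs in each line.

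The snoRNP proteins differed little. Among box C/D proteins, NOP58 was higher by 0.14 in HCT116 and 0.23 in Caco-2, and NOP56 differed by 0.29 and -0.06. FBL, the methyltransferase fibrillarin, differed by -0.26 and -0.06, and RRP9 by -0.04 and -0.06. Among box H/ACA proteins, which also serve telomerase RNA, the pseudouridine synthase DKC1 differed by 0.09 and 0.01, GAR1 by 0.22 and -0.16, NHP2 by -0.20 and -0.18 and NOP10 by 0.16 and -0.27.

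NOLC1, a chaperone of snoRNPs that shuttles between nucleolus and Cajal bodies, was the gene with the highest difference in Caco-2 and was higher in both lines. It read 11.57 with BORIS siRNA against 11.22 with control siRNA in HCT116, and 11.446 against 10.995 in Caco-2. Both BORIS siRNA arrays lay above both control arrays. The log2 differences were 0.35 and 0.45, and its 3 probe sets ranged from 0.35 to 0.61 in HCT116 and from 0.33 to 0.52 in Caco-2. Its neighbours in role differed less: the histone chaperone NPM1 by 0.07 in HCT116 and 0.03 in Caco-2, nucleolin (NCL) by -0.21 and -0.01, and the RNA helicase DDX21 by 0.05 and 0.11. The other DDX21 probe sets stood at -0.03 and -0.09 in HCT116, and those of NPM1 took both signs in Caco-2, between -0.09 and 0.06.

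**Figure D2:**
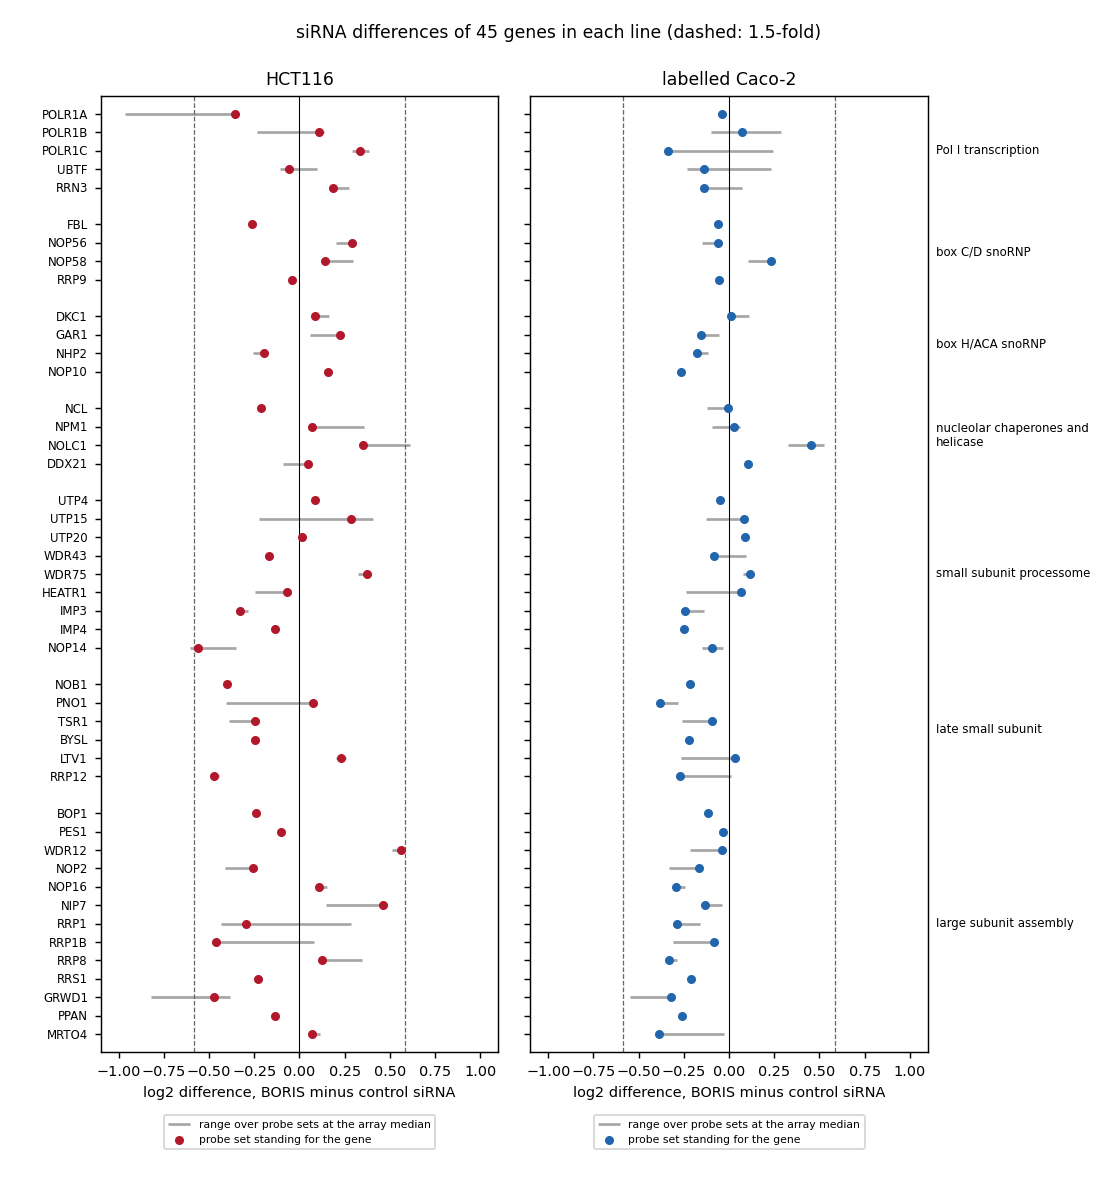
Log2 difference between BORIS and control siRNA (horizontal axis) for each of 45 genes, grouped by role, in HCT116 (left) and Caco-2 (right). Points are the probe sets standing for the genes, grey bars the range over the probe sets of a gene that reached the array median, and dashed lines 1.5-fold. No point lies beyond a dashed line, and all 13 large subunit points lie left of 0 in Caco-2.

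Within the small subunit processome, NOP14 read 6.55 with BORIS siRNA against 7.11 with control siRNA in HCT116, and 6.78 against 6.88 in Caco-2. The HCT116 difference of -0.56 was just inside 1.5-fold, and its 3 probe sets ranged from -0.61 to -0.35. IMP3, which with its partner IMP4 pairs the snoRNA with the precursor, differed by -0.33 and -0.24, and IMP4 by -0.14 and -0.25. Of the factors that load first on the nascent RNA, WDR75 was higher by 0.38 in HCT116 and 0.12 in Caco-2, UTP15 by 0.28 and 0.08, UTP4 differed by 0.09 and -0.05, HEATR1 by -0.07 and 0.07 and WDR43 by -0.17 and -0.08. The 3 probe sets of UTP15 took both signs in each line. UTP20 differed by 0.01 and 0.09.

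Of the late small subunit factors, 4 of 6 were lower in HCT116, where 55.4% of all expressed genes were, and 5 of 6 in Caco-2, where 49.4% were. The HCT116 count is near that background, and 6 genes are few. RRP12, a nuclear export factor, read 9.04 against 9.51 in HCT116 and 9.28 against 9.55 in Caco-2, differences of -0.47 and -0.27. Its 3 probe sets lay between -0.47 and -0.45 in HCT116, but between -0.27 and 0.01 in Caco-2. NOB1, the endonuclease that makes the final cut of the small subunit RNA, read 10.82 against 11.22 and 10.84 against 11.06, differences of -0.40 and -0.22. PNO1, its partner, differed by 0.07 in HCT116 and -0.38 in Caco-2, where it read 9.82 against 10.20. Its other 2 probe sets stood at -0.31 and -0.40 in HCT116, opposite in sign to the first, and at -0.29 and -0.28 in Caco-2. BYSL differed by -0.25 and -0.22, TSR1 by -0.24 and -0.09, and the assembly factor LTV1 by 0.23 and 0.03. The 4 probe sets of LTV1 were higher in HCT116 and took both signs in Caco-2.

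Large subunit assembly factors gave the most uniform result. All 13 measured were lower with BORIS siRNA in Caco-2, between -0.39 and -0.03 with a median of -0.21, and all 25 of their probe sets at or above the array median were lower. Of all genes expressed in Caco-2, 49.4% were lower. These values share the same pair of arrays and are not independent, and none reached 1.5-fold. The group is 1 of 7 roles and was singled out with the values seen. In HCT116, 8 of the 13 were lower and 5 higher, with a median of -0.14, and 13 of the 25 probe sets were lower. That is near the background, as 55.4% of all genes expressed in HCT116 were lower. The count in Caco-2 was 13 of 13 under 6 of the 7 alternative settings and 12 of 12 when _x_at and _s_at probe sets were left out. Most of these settings do not test it. The filters left the values unchanged, and a constant added on the linear scale cannot turn a sign. Probe set means and the choice of kinds drew mostly on the 25 probe sets above, all lower. Quantile and loess normalization could have turned signs, and each gave 13 of 13. In a wider list of other large subunit factors the split was 27 lower and 20 higher in Caco-2, with a median of -0.04.

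MRTO4, which holds the place of a stalk protein on the young subunit, had the most negative difference of the 45 in Caco-2, at 9.44 with BORIS siRNA against 9.82 with control siRNA, and read 10.10 against 10.04 in HCT116. The differences were 0.07 in HCT116 and -0.39 in Caco-2, but the other MRTO4 probe set stood at -0.03 in Caco-2. GRWD1, a histone-binding nucleolar protein, read 8.36 against 8.83 in HCT116 and 8.69 against 9.01 in Caco-2, differences of -0.47 and -0.32. All 3 of its probe sets were lower in both lines, between -0.82 and -0.38 and between -0.55 and -0.32. The lower bound in each line came from the probe set that is not of the _x_at kind, which stood past 1.5-fold in HCT116.

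The PeBoW complex, formed by PES1, BOP1 and WDR12, did not differ as a unit. WDR12 had the highest HCT116 difference of the 45, at 10.59 against 10.02, a difference of 0.56, and read 10.22 against 10.26 in Caco-2, a difference of -0.04. BOP1 differed by -0.24 in HCT116 and -0.12 in Caco-2, and PES1 by -0.10 and -0.03. NIP7 read 10.52 against 10.06 in HCT116 and 9.77 against 9.90 in Caco-2, differences of 0.46 and -0.13, and its other probe set stood at 0.14 in HCT116.

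RRP1B and its paralog RRP1 differed by -0.46 and -0.29 in HCT116 and by -0.08 and -0.29 in Caco-2. Their probe sets disagreed in HCT116, ranging from -0.46 to 0.08 for RRP1B and from -0.43 to 0.29 for RRP1. The rRNA methyltransferases NOP2 and RRP8 differed by -0.26 and 0.12 in HCT116 and by -0.17 and -0.33 in Caco-2. NOP16 differed by 0.11 and -0.29, RRS1 by -0.23 and -0.21, and PPAN, whose RNA can run on into the neighbouring gene, by -0.14 and -0.26.

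**Figure D3:**
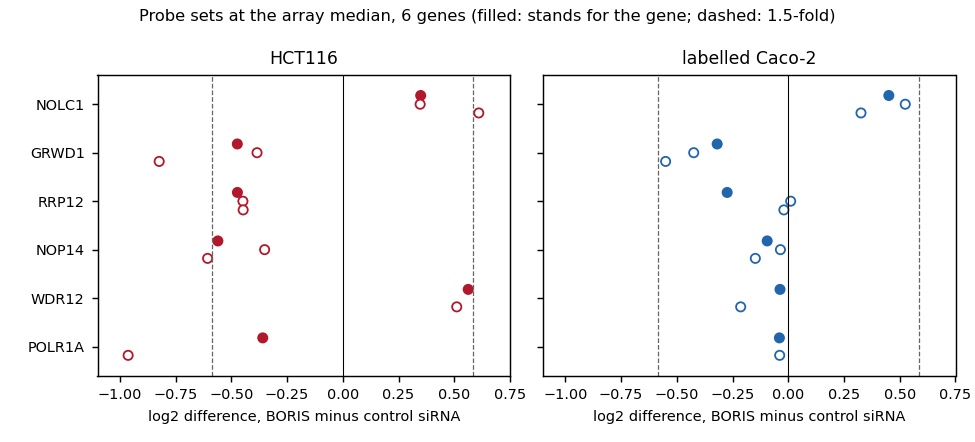
Log2 difference between BORIS and control siRNA (horizontal axis) for the probe sets at or above the array median of NOLC1, GRWD1, RRP12, NOP14, WDR12 and POLR1A, in HCT116 (left) and Caco-2 (right). Filled points stand for the gene, open points are its other probe sets, and dashed lines mark 1.5-fold. The 3 NOLC1 points lie right of 0 and the 3 GRWD1 points left of 0 in both panels.

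More broadly, 33 of the 45 genes had over 1 probe set at the array median. All probe sets of a gene lay on the same side of 0 for 26 of these 33 in HCT116 and for 23 in Caco-2. The representing probe set was of the _x_at kind for 5 genes and of the _s_at kind for 11, and such probe sets can bind related transcripts, pseudogenes included.

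The second question was whether both lines shared an effect of BORIS siRNA. In a limma fit over the 4 arrays with cell line as a block, which takes the disagreement between the lines as the error, 0 of 45 genes passed a Benjamini-Hochberg adjusted p of 0.05, and the background was 0% of 11165 genes in each direction. At an unadjusted p under 0.05 the count was 1 of 45, NOLC1, against 6% of all genes. NOLC1 averaged 0.40 over the lines, higher in 2 of 2, with a limma unadjusted p of 0.0157 and an adjusted p of 0.769. GRWD1 averaged -0.40 and RRP12 -0.37, each lower in 2 of 2 lines, with the same adjusted p. After quantile normalization the fit called 44 genes higher and 38 lower, and 0 of the 45 were among them.

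The third comparison set HCT116 against Caco-2, over both siRNAs, with 2 arrays a line and siRNA as the block in the same fit. Of the 45 genes, 4 were higher and 4 lower in HCT116 at an adjusted p under 0.05, where 19.4% of 11165 genes were higher and 19.8% lower. The genes of this list were thus called at 17.8%, under the 39.2% of all genes tested. The median absolute line difference was 0.26, against 0.43 over all genes. At an unadjusted limma p under 0.05 the count was 15 of 45, against 48% of all genes. The sign of the line difference was the same with both siRNAs for 20 genes higher in HCT116 and 18 lower. The share of all tested genes with the same sign was not counted, so this shows nothing particular to the list. The blood marker list differed between the lines by a single gene. It held 1 of 5 measured members at the array median on each HCT116 array, and 2 of 5 on each array labelled Caco-2. The added member was LYZ, at 4.68 and 4.13 in HCT116 against 13.12 and 13.26 in Caco-2, while PTPRC stayed between 3.05 and 3.36 on all arrays. The endothelial list held at most 1 of 4. Their part in the line differences was not tested.

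LTV1, a small subunit assembly factor, was higher in HCT116, at 9.24 and 9.01 with BORIS and control siRNA, against 8.22 and 8.19 in Caco-2. This gave 0.92 ± 0.18 (SE, limma adjusted p = 0.00815). All 4 of its probe sets differed the same way, between 0.92 and 1.15. RRN3 read 9.23 and 9.05 in HCT116, against 8.19 and 8.32 in Caco-2, a difference of 0.88 ± 0.18 (SE, limma adjusted p = 0.0106), and its 3 probe sets lay between 0.73 and 0.88. A further probe set shared with RRN3 pseudogenes was not used.

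BOP1 read 10.07 and 10.31 in HCT116, against 9.35 and 9.47 in Caco-2, a difference of 0.78 ± 0.16 (SE, limma adjusted p = 0.0101). WDR43 read 9.06 and 9.23, against 8.44 and 8.53, a difference of 0.65 ± 0.17 (SE, limma adjusted p = 0.0251). The other WDR43 probe set stood at 0.38. In these 4 genes both HCT116 arrays lay above both Caco-2 arrays.

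UTP20, a large scaffold protein of the processome, was lower in HCT116, at 6.52 and 6.51 with BORIS and control siRNA, against 7.39 and 7.30 in Caco-2. This gave -0.83 ± 0.18 (SE, limma adjusted p = 0.0125). POLR1A read 7.48 and 7.84, against 8.463 and 8.502, a difference of -0.82 ± 0.19 (SE, limma adjusted p = 0.0144), and stood at -1.07 by its other probe set. The catalytic subunit and its recruiting factor RRN3 therefore differed between the lines in opposite directions.

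DKC1 read 11.03 and 10.94 in HCT116, against 11.63 and 11.62 in Caco-2, a difference of -0.64 ± 0.12 (SE, limma adjusted p = 0.00799). FBL read 11.64 and 11.90, against 12.20 and 12.26, a difference of -0.46 ± 0.11 (SE, limma adjusted p = 0.0183). DKC1 and FBL are the catalytic proteins of the H/ACA and C/D snoRNPs. Of their partners, GAR1 stood at 0.51 with a limma adjusted p of 0.0536, NOP10 at 0.27, NHP2 at -0.15, NOP58 at -0.10 and NOP56 at -0.01, and none of these passed the test.

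**Figure D4:**
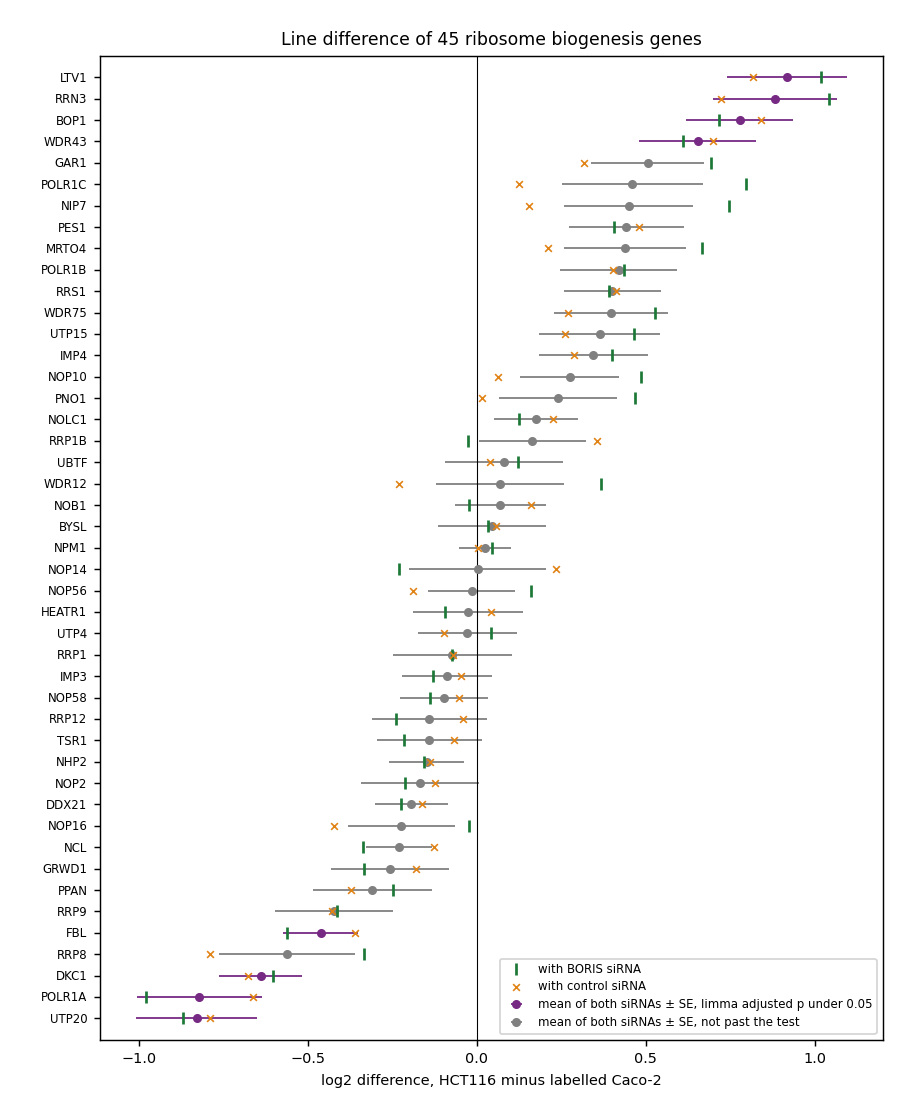
Log2 difference between HCT116 and Caco-2 (horizontal axis) for 45 genes in order of its size, as the mean over both siRNAs with its limma standard error (points and bars) and separately with BORIS siRNA (green ticks) and control siRNA (orange crosses). The 8 purple genes passed the limma test, LTV1, RRN3, BOP1 and WDR43 above 0 and FBL, DKC1, POLR1A and UTP20 below 0.

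These 8 calls depended on the arrays used and on the scaling. Calls were lost without either Caco-2 array, in a fit without a siRNA term that left a lone array in that line. Others were gained without either HCT116 array. Quantile normalization called 12 of the 45 higher and 4 lower, but calls over all genes rose too. They were 2807 higher and 2426 lower of 11166, against 2161 and 2212 of 11165 in the main setting. The line differences of the 8 kept their sign in all 12 alternatives. That of LTV1 lay between 0.80 and 1.04, and that of FBL between -0.59 and -0.33.

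Other genes of the pathway were taken from 4 lists of further polymerase I, small subunit, large subunit and RNA-trimming factors. Their median absolute siRNA difference was close to that of all expressed genes, at 0.22 against 0.25 in HCT116 and 0.14 against 0.15 in Caco-2. Of 135 expressed in HCT116, 5 were higher and 2 lower with BORIS siRNA at 1.5-fold or more, and of 134 in Caco-2, 0 and 0. That is 3.70% higher and 1.48% lower in HCT116, against 4.36% and 9.18% of all expressed genes. The share of higher genes is thus near the background. In Caco-2, 2.78% of all expressed genes were higher and 1.14% lower. Those past 1.5-fold in HCT116 were the processome factors ESF1 at 0.98 and KRR1 at 0.89, the polymerase I factor TAF1D at 0.60, the large subunit factor RSL24D1 at 0.60, the exosome helicase MTREX at 0.60, the ribosomal DNA silencing protein BAZ2A at -0.61 and the large ATPase MDN1 at -0.59. KRR1 read 10.92 against 10.03 in HCT116, and 8.89 against 8.53 in Caco-2. ESF1 was higher by 0.15 in Caco-2. The limma fit called 0 of the 135 for a shared siRNA effect. For the line difference it called 28 higher and 17 lower in HCT116, or 20.7% and 12.6%, against 19.4% and 19.8% of all genes, among them, picked after their values were seen, KRR1 at 1.77 and the exosome subunit EXOSC4 at 1.43 on the higher side. On the lower side, picked likewise, the ribonuclease P subunit RPP25 stood at -3.23 and the processome helicase DDX52 at -2.90.

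**Figure D5:**
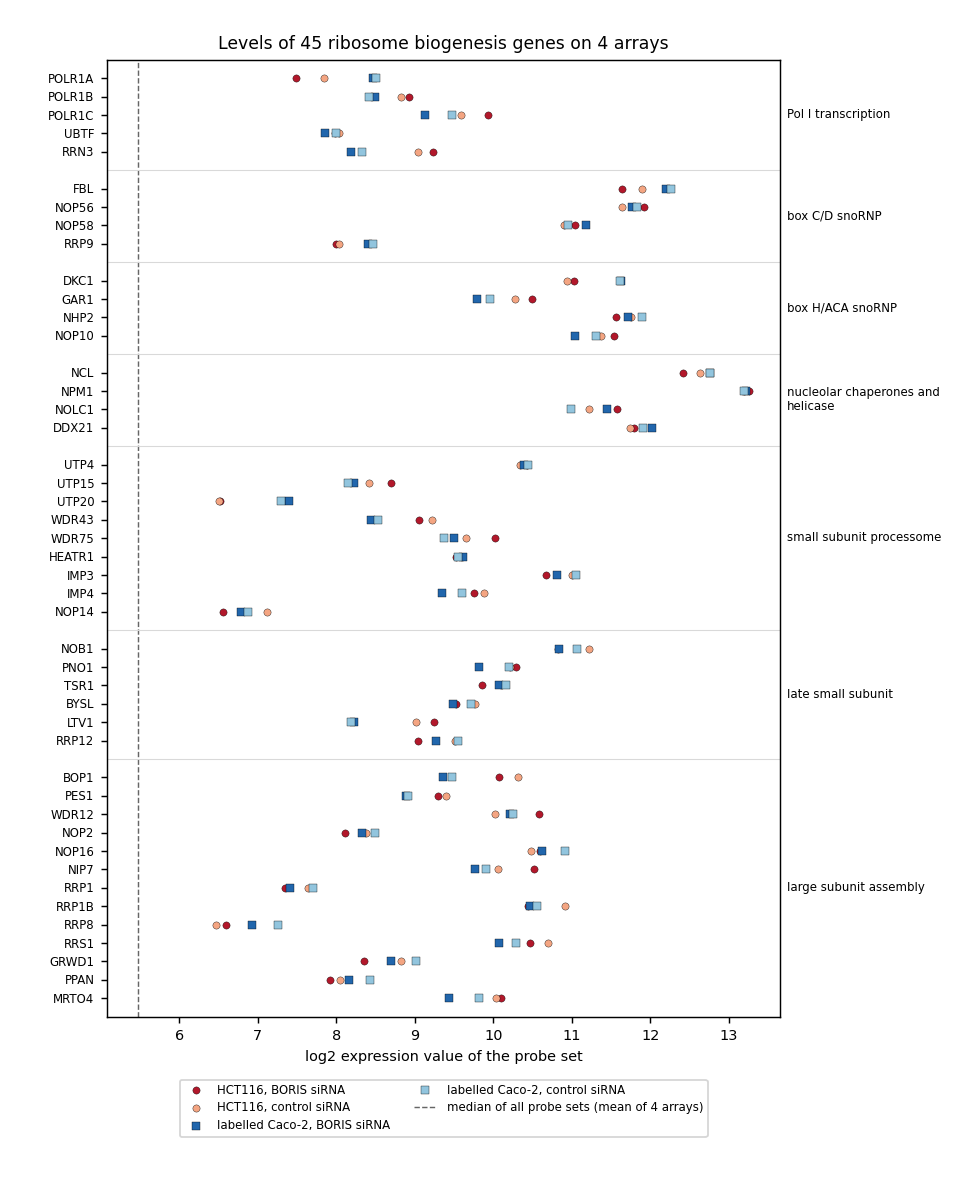
Log2 expression value of the probe set standing for each of 45 genes (horizontal axis) on the 4 arrays, grouped by role, with circles for HCT116 and squares for Caco-2, darker for BORIS siRNA. The dashed line is the median of all probe sets. All points lie right of it, between 6.47 and 13.26, and levels of different probe sets are not comparable with each other.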

How the data were processed

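Per the labels' protocols, TRIzol-extracted RNA was amplified into biotin-labelled cRNA from its 3 prime end. The authors deposited 1 log2 value for each probe set and array. How they corrected, normalized and summarised the arrays is not given in the sources used here, and scanner files were not used here. The unit was taken from the values.

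Of 49395 probe sets, 44988 were paired with 1 gene by the platform annotation, 1832 with several and 2473 were unlisted. Entrez IDs in a RefSeq table (GRCh38.p14) changed 0 symbols. A gene took its brightest probe set. A gene was expressed when it reached the array median on at least 1 array compared, and background was the 95th percentile over olfactory receptor probe sets. siRNA differences are BORIS minus control, untested. Shared and line effects came from limma 3.58.1 in R 4.3.3 (lmFit, eBayes with trend, Benjamini-Hochberg over all 11165 genes). The fit was also run on simulated data with independent noise of the fitted variances, which does not check the error on these arrays. With 1 residual degree of freedom against a prior of 5.49, the error of each gene came mostly from variance pooled over all genes tested. In the line test, the part from the gene itself is the disagreement of its line difference between the siRNAs. Nothing says that arrays of a line came from separate experiments, so p-values do not measure the spread between experiments.

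The genes and lists were chosen with earlier results of these data known. Named were all listed genes, and of the wider lists up to 4 each with the largest difference. Alternatives were 2 filters, the mean of a gene's probe sets, leaving out _x_at and _s_at kinds, quantile and loess normalization (span 0.3), 16 added on the linear scale, and other arrays or terms in the line fit. The number of arrays limits the precision.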

Additional observations from a re-analysis of the deposited data

Results flagged for a closer look

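Genes whose siRNA differences had opposite signs in the 2 lines and lay at least 1.5-fold apart numbered 3. The share of all expressed genes with this pattern was not counted. The differences of the lines were not tested, since each rests on 1 pair of arrays a line. The HCT116 difference minus the Caco-2 difference was 0.67 for POLR1C, 0.60 for WDR12 and 0.59 for NIP7. For WDR12, both probe sets at the array median were higher in HCT116 and lower in Caco-2. For POLR1C the mean over its probe sets stood at -0.06 in Caco-2, and for NIP7 at 0.30 in HCT116.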

How the results depend on the processing

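In the main setting, 0 of 45 genes passed 1.5-fold in either line. The counts became 1 lower in HCT116 with probe set means per gene (POLR1A) and 1 lower there without _x_at and _s_at probe sets (GRWD1). The other alternatives at 1.5-fold also gave 0 in HCT116, and all gave 0 in Caco-2. At 1.25-fold, added after the data had been seen, they were 5 higher and 7 lower in HCT116 and 1 higher and 4 lower in Caco-2. The HCT116 median of -0.040 became -0.026 with probe set means, 0.00026 without _x_at and _s_at probe sets, 0.020 after quantile normalization and 0.016 after loess, so its sign is not settled. The Caco-2 median of -0.095 stayed below 0 throughout, reaching -0.14 after quantile normalization. Medians of all expressed genes were -0.048 in HCT116 and 0.003 in Caco-2 in the main setting. They were -0.002 and -0.027 after quantile normalization, and -0.016 and -0.002 after loess. The cause was not tested. Genes past the line test and higher in HCT116 numbered 4 of 45, where 2161 of all 11165 genes were. They numbered 8 with probe set means (2124 of all 9735). After quantile normalization they numbered 12 (2807 of all 11166), and after loess normalization 12 (2751 of all 11162). With each array left out in turn, in a fit with no siRNA term that assumes a lone array varies like the others, the calls changed. The shared-effect count for the 45 genes stayed at 0 in all 7 alternatives. Over all 45 genes, 20 of 623 recomputed siRNA differences turned sign, in 12 genes. That total includes settings that could not turn a sign, with 0 of 90 each: each filter, and the constant added on the linear scale. The filters left the values of the 45 genes unchanged, so they do not test the counts at 1.5-fold or the medians either. Probe set means turned 8 of 89 (DDX21, HEATR1 and PNO1 in HCT116, HEATR1, LTV1, NPM1, UTP15 and WDR43 in Caco-2). Leaving out _x_at and _s_at probe sets turned 4 of 84 (DDX21 and RRP1B in HCT116, NPM1 and UBTF in Caco-2). Quantile normalization turned 5 of 90 and loess normalization 3 of 90 (among DKC1, LTV1, NCL, RRP9 and UBTF). The fits reported already pair the arrays by holding cell line or siRNA as a block. No further pairing was possible, as each line has 1 array per siRNA and the labels number no replicates. By the probe sets standing for them, all 45 genes lay above background on every array. This does not hold for all other probe sets. The second POLR1A probe set, which enters its probe set mean, read 4.57 in HCT116 with BORIS siRNA, below the background of 5.15 there.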
